A study of Homo sapiens with 6 samples.

Results

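The genes described are WNK1, the kinases it acts on, and the proteins that scaffold, modify or degrade members of this cascade. They are 10 of the 20348 genes in the deposited table, found by their symbols, with earlier results of these data known when the list was drawn up: WNK1, OXSR1 (protein name OSR1), STK39 (protein name SPAK), CAB39 and CAB39L (the MO25 scaffolds), SGK1, SGK3, CUL3, KLHL2 and KLHL3. RNA sequencing was done on MV4-11, an established human acute myeloid leukemia (AML) cell line. Of its 6 samples, 3 came from cells given 1 μM WNK463 for 48 h and 3 from control cells (Ctrl) that are described as untreated in the sample labels and as a blank in the study design, with no solvent named. WNK463 binds the ATP site of WNK kinases and inhibits the kinases of this family, so the comparison asks what happened to the RNA of the drug target and its partners in cells exposed to the inhibitor. Nothing in the labels says that the 3 samples of a group came from separate cultures, so the p-values measure only the spread between these samples, which may be technical.

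WNK kinases sense osmotic stress and the chloride inside the cell. WNK1 phosphorylates SPAK and OSR1, which bind MO25 for full activity and then phosphorylate the SLC12 cation-chloride cotransporters, switching the sodium-dependent ones on and the potassium-chloride ones off. The amount of WNK protein is set in large part by a ubiquitin ligase built on cullin 3, whose adaptors KLHL2 and KLHL3 hand WNK kinases over for degradation, while the SGK kinases are linked to WNK1 through the control of ion channels and transporters.

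The libraries held 14915745 to 17411780 counts in total, and 11973 genes had enough counts for a test. Counts are given as CPM, counts per 1000000 on library sizes scaled by the TMM method, and a gene was called when its adjusted p was below 0.05 in edgeR's quasi-likelihood test with Benjamini-Hochberg adjustment over all tested genes. With scaling by total counts alone, the median log2 fold change of all genes lay 0.15 above that with TMM, and the share of called genes that were higher went from 50.2% to 63.9%. All 8 markers of the myeloid leukemia line had enough counts for a test. Their summed level was 1120 to 1180 CPM in the Ctrl samples and 1270 to 1300 CPM in the WNK463 samples. MPO, the lowest of them, was at 7.47 ± 0.423 CPM in the Ctrl samples and 1.31 ± 0.479 CPM in the WNK463 samples. Of these markers 4 were called higher (PTPRC, HOXA9, MEIS1 and CEBPA, with log2 fold changes of 1.20, 0.72, 0.33 and 0.18), 3 lower (MPO, CD33 and FLT3, with -2.50, -0.38 and -0.20) and SPI1 was not called. T cell, B cell, erythroid, epithelial and fibroblast markers each summed to at most 1.15 CPM in every sample, with the erythroid and epithelial ones at 0 throughout. Summed over 6 macrophage markers, the level was 2.44 to 3.47 CPM in the Ctrl samples and 19.6 to 20 CPM in the WNK463 samples, with C1QA, a complement chain, at 0.985 ± 0.627 and 13.1 ± 1.12 CPM, and with CD163 at 0 counts in all Ctrl samples and 1 count in the WNK463 samples. In such bulk samples, fewer cells of a type and less RNA per cell cannot be told apart.

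Of the 10 genes, 9 had enough counts to be tested. Among them 6 were higher with WNK463 (OXSR1, CAB39, CAB39L, SGK3, KLHL2 and KLHL3), beside 35.5% of all tested genes. STK39 was the 1 gene called lower, beside 35.3% of all tested genes, and WNK1 and CUL3 were not called. Called changes of at least 2-fold were seen for KLHL2 and KLHL3, beside 15.2% of all tested genes. The groups did not overlap for the 6 higher genes, and they did not overlap for 73.5% of all tested genes. The median log2 fold change of the 9 genes was 0.32, and that of all tested genes 0.02. In the same samples the macrophage markers C1QA, C1QB and C1QC rose, while MARCO was not called and VSIG4 and CD163 were too low to test. C1QA, C1QB and C1QC met the filter on low counts in all of the WNK463 samples and not in all of the Ctrl samples. In the Ctrl samples C1QA had 24, 4 and 20 counts, C1QB 0, 1 and 0, and C1QC 2, 4 and 1. The part of the macrophage markers and of those of the leukemia line in the members' changes was not tested.

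**Figure D1:**
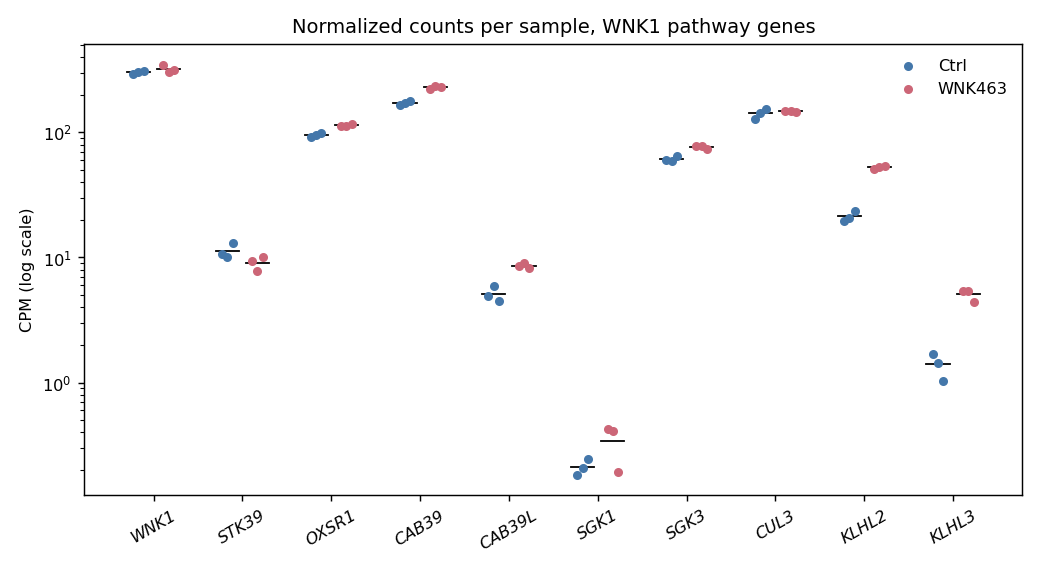
Normalized counts (CPM, log axis) of the 10 genes in each of the 3 Ctrl samples (blue) and 3 WNK463 samples (red), with black lines at the group means. KLHL2 and KLHL3 show the widest gaps between the groups (from 21.3 to 52.5 CPM and from 1.39 to 5.08 CPM), while the points of WNK1, CUL3 and STK39 overlap and SGK1 lies below 0.5 CPM.

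WNK1 (ENSG00000060237, GRCh38, chromosome 12, 752593 to 911452, plus strand) encodes the kinase that WNK463 inhibits. Its level was 293, 306 and 312 CPM in the Ctrl samples and 349, 304 and 318 CPM in the WNK463 samples. The groups overlapped, since the second WNK463 sample lay below the second and the third Ctrl sample, and the first WNK463 sample lay above all others. The means were 304 ± 9.37 and 324 ± 22.9 CPM (SD, n = 3 each), and the log2 fold change of 0.09 (SE 0.05, 95% confidence interval -0.02 to 0.20) was not called (adjusted p = 0.123, edgeR). The interval allows a change from 0.988-fold to 1.15-fold. The call turned on the scaling and on 1 library. Without the second WNK463 sample the log2 fold change was 0.13 (adjusted p = 0.0402, edgeR), while without the first WNK463 sample it was 0.033 (adjusted p = 0.588, edgeR). With total counts it was 0.24 (adjusted p = 0.000432, edgeR). On the authors' TPM, which divides counts by transcript length before scaling each sample to the same total, WNK1 stood at 75.7, 81.8 and 82.2 in the Ctrl samples and at 105, 91.7 and 89.2 in the WNK463 samples. These groups did not overlap, and limma on log2(TPM + 1) gave a called log2 fold change of 0.25 (adjusted p = 0.0112). In the annotation, 77 bases or 0.536% of the WNK1 exons lie opposite an antisense gene, AC004765.1.

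The other kinases of the WNK family were close to absent. WNK2 had 1 count in all 6 samples together, and WNK3 had 0, 1 and 1 counts in the Ctrl samples and 0, 2 and 0 in the WNK463 samples. WNK4 had 1, 1 and 3 counts in the Ctrl samples and 11, 6 and 18 in the WNK463 samples. For WNK4 the lowest WNK463 sample lay above the highest Ctrl sample, at a depth too low for the filter on low counts. The ratio of its summed counts per library size, 35 against 5 counts, was 6.71 (95% interval 2.62 to 21.95, counting error only). With no filter on low counts its log2 fold change was 2.66 (SE 0.78, adjusted p = 0.00281, edgeR). Per length, in TPM, WNK1 held 99.9 ± 0.0358% of the RNA of WNK1 to WNK4 in the Ctrl samples and 99.6 ± 0.222% in the WNK463 samples.

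CUL3 (ENSG00000036257, chromosome 2, 224470150 to 224585397, minus strand) encodes cullin 3, the backbone of the ubiquitin ligase. Its level was 129, 143 and 155 CPM in the Ctrl samples and 148, 148 and 147 CPM in the WNK463 samples. The 3 WNK463 samples lay close together between the second and the third Ctrl sample. The means were 142 ± 13.1 and 148 ± 0.825 CPM (SD, n = 3 each), with a log2 fold change of 0.05 (SE 0.06, 95% confidence interval -0.07 to 0.18) and no call (adjusted p = 0.438, edgeR). The sign depended on the first Ctrl sample, without which the log2 fold change was -0.02 (adjusted p = 0.717, edgeR), and with total counts the change was 0.20 and called (adjusted p = 0.00687, edgeR), as was that of 0.24 with limma on log2(TPM + 1) (adjusted p = 0.0141). In the annotation, 598 bases or 5.20% of the CUL3 exons lie opposite an antisense gene, AC073052.2, and whether the counting used strand is not given in the sources used here.

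KLHL2 and KLHL3 are the adaptors that bind cullin 3 with one end and WNK kinases with the other, and their RNA changed more than that of any other tested gene among the 10. The 250 bases before the start of each gene that lies farthest upstream in RefSeq (GRCh38.p14) are shown because these adaptors rose together. Capitals mark the GC box (GGGCGG, read on both strands, so that its complement is marked as well). It was the only match among 4 motifs searched on both strands. The other motifs were the E-box (CACGTG), the box read by nuclear factor Y (CCAAT) and the TATA box (TATAAA). The KLHL2 sequence is chr4:165207311-165207560 on the plus strand and the KLHL3 sequence is chr5:137736090-137736339, written as the minus strand.
KLHL2: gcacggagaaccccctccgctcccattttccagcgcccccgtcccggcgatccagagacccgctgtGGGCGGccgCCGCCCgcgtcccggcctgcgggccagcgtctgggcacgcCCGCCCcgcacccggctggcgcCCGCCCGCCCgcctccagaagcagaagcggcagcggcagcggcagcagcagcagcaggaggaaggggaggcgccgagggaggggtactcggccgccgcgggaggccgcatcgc
KLHL3: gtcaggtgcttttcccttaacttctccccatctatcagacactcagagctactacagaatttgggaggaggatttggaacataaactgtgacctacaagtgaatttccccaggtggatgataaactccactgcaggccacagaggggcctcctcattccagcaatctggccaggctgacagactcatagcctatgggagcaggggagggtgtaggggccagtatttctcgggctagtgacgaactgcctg

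The KLHL2 sequence held 5 GC boxes, a pair of which overlap, and the KLHL3 sequence held none of the 4 motifs. Of all 35116 RefSeq windows of this length, 42.6% held a GC box, 6.34% an E-box, 32% the box of nuclear factor Y and 10.7% a TATA box. Of the other members with an entry, WNK1 held 2 GC boxes, STK39 held 3, and CAB39 and CUL3 held 1 each. OXSR1, CAB39L and SGK1 held none, and SGK1 held 1 TATA box. For each member only the start farthest upstream was searched. SGK1 and KLHL3 have 3 starts and CAB39, CUL3 and KLHL2 have 2. Genes with GC boxes were found among those that were higher, lower and not called.

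KLHL2 (ENSG00000109466, chromosome 4, 165207618 to 165323156, plus strand) had 19.6, 20.9 and 23.4 CPM in the Ctrl samples and 51.0, 52.9 and 53.5 CPM in the WNK463 samples. Every WNK463 sample had more than 2-fold the level of every Ctrl sample. The means of 21.3 ± 1.91 and 52.5 ± 1.32 CPM (SD, n = 3 each) differed by a log2 fold change of 1.30 (SE 0.08, 95% confidence interval 1.14 to 1.46), a 2.46-fold rise (adjusted p = 6.23e-11, edgeR). It ranked 412 by p among the 11973 tested genes. Of the 75-base stretches in its transcripts, 3.98% also occur in the pseudogene KLHL2P1.

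KLHL3 (ENSG00000146021, chromosome 5, 137617500 to 137736090, minus strand), whose mutations cause familial hyperkalemic hypertension as those of CUL3, WNK1 and WNK4 do, was far less abundant. Its counts were 28, 21 and 17 in the Ctrl samples and 90, 93 and 69 in the WNK463 samples, or 1.70, 1.44 and 1.04 CPM against 5.44, 5.41 and 4.405 CPM. Sample 3 was the lowest in each group, and the groups did not overlap. The means rose from 1.39 ± 0.336 to 5.08 ± 0.587 CPM (SD, n = 3 each), 3.64-fold, with a log2 fold change of 1.86 (SE 0.25, 95% confidence interval 1.34 to 2.38, adjusted p = 2.6e-06, edgeR). At this depth the interval runs from 2.54-fold to 5.22-fold, wider than that of KLHL2 (2.21-fold to 2.75-fold).

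Set against the cullin they bind, the adaptors rose while CUL3 was not called in CPM. In TPM, the measure of the ratios below, CUL3 was at 78.2, 87.6 and 95.3 in the Ctrl samples. It was at 104, 103 and 101 TPM in the WNK463 samples, and limma on log2(TPM + 1) called it higher (0.24, adjusted p = 0.0141). In TPM, the sum of KLHL2 and KLHL3 was 14.1, 14.4 and 16.6 in the Ctrl samples and 42.8, 42.2 and 42.1 in the WNK463 samples. Divided by the TPM of CUL3 in the same sample, it gave ratios of 0.180, 0.165 and 0.175 in the Ctrl samples and of 0.412, 0.412 and 0.418 in the WNK463 samples. The groups were widely apart next to the spread within them (0.173 ± 0.00758 and 0.414 ± 0.00345, SD, n = 3 each). The exact two-sided permutation test gave p = 0.10, the smallest that 3 against 3 samples can give, and 0.12 after Benjamini-Hochberg adjustment over the 6 sums and ratios compared. KLHL3 made up 2.61 ± 0.809% of the TPM of the pair in the Ctrl samples and 3.81 ± 0.414% in the WNK463 samples. The ratio of KLHL2 to KLHL3 was 29.6, 34.1 and 57.6 in the Ctrl samples and 24.01, 23.5 and 29.03 in the WNK463 samples, so that the groups were apart by a narrow margin (log2 difference -0.61, exact permutation p = 0.10, adjusted 0.20 over 4 pairs). Without the third Ctrl sample that difference was -0.32, and with a pseudocount of 0.1 TPM it was -0.36.

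**Figure D2:**
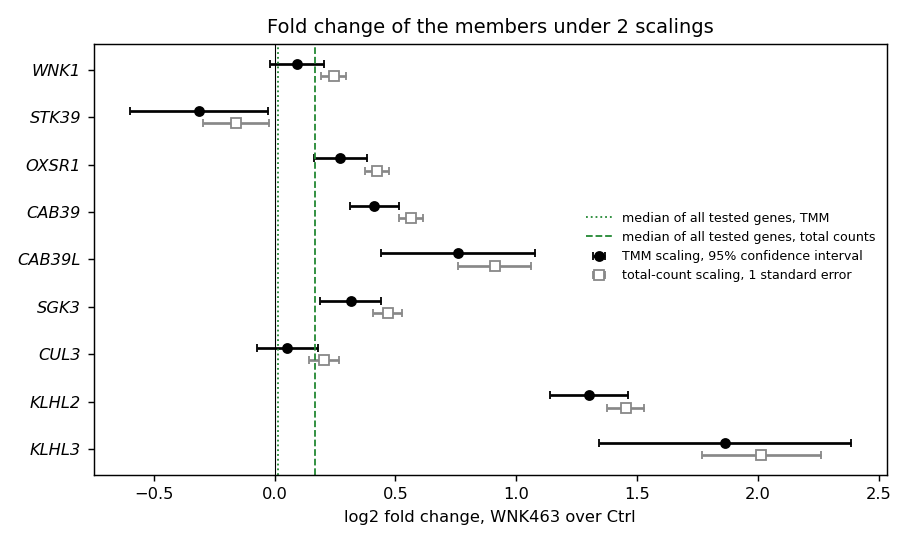
Log2 fold change, WNK463 over Ctrl, of the 9 tested genes with TMM scaling (black, 95% confidence interval) and with total-count scaling (open squares, 1 standard error), with dotted and dashed green lines at the median of all tested genes under each. KLHL2 (1.30) and KLHL3 (1.86) lie far to the right, STK39 (-0.31) lies left of 0, and the TMM intervals of WNK1 and CUL3 include 0.

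OXSR1 and STK39 encode OSR1 and SPAK, the closely related kinases that WNK1 activates. OXSR1 was called higher and STK39 lower, but the call of STK39 was narrow and was lost under several alternatives. OXSR1 (ENSG00000172939, chromosome 3, 38165089 to 38255488, plus strand) had 91.9, 94.5 and 98.1 CPM in the Ctrl samples and 112, 113 and 118 CPM in the WNK463 samples. All WNK463 samples lay above all Ctrl samples. The means of 94.8 ± 3.08 and 114 ± 2.89 CPM (SD, n = 3 each) differed by a log2 fold change of 0.27 (SE 0.05, 95% confidence interval 0.16 to 0.38), a 1.21-fold rise (adjusted p = 0.00015, edgeR).

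STK39 (ENSG00000198648, chromosome 2, 167954020 to 168248141, minus strand) had 10.7, 10.01 and 13.1 CPM in the Ctrl samples and 9.30, 7.79 and 10.2 CPM in the WNK463 samples. The groups overlapped, because the third WNK463 sample lay above the second Ctrl sample. The means were 11.2 ± 1.601 and 9.08 ± 1.20 CPM (SD, n = 3 each), with a log2 fold change of -0.31 (SE 0.14, 95% confidence interval -0.60 to -0.03) that passed the threshold narrowly (adjusted p = 0.0482, edgeR). The call was lost with DESeq2 (adjusted p = 0.0859), with total counts (log2 fold change -0.16, adjusted p = 0.297, edgeR) and with a filter of at least 10 counts in every sample (adjusted p = 0.0598, edgeR). It was also lost without the third Ctrl sample (-0.20, adjusted p = 0.226), without the first WNK463 sample (-0.33, adjusted p = 0.0815) and without the second WNK463 sample (-0.21, adjusted p = 0.198), all with edgeR. In TPM, STK39 had 6.11, 5.90 and 7.69 in the Ctrl samples and 6.13, 5.18 and 6.62 in the WNK463 samples, which overlapped. There limma on log2(TPM + 1) gave a log2 fold change of -0.11 (adjusted p = 0.471).

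The balance within the pair was measured as the ratio of their TPM in each sample. This ratio does not depend on the scaling between libraries. OXSR1 had 6.14, 6.74 and 5.32 times the TPM of STK39 in the Ctrl samples and 8.74, 10.4 and 8.46 times in the WNK463 samples. The groups did not overlap, and every WNK463 sample lay further toward OXSR1. STK39 made up 14.3 ± 1.46% of the TPM of the pair in the Ctrl samples and 9.87 ± 0.971% in the WNK463 samples (SD, n = 3 each). The log2 ratio differed by 0.60, with an exact two-sided permutation p = 0.10, the smallest possible, and 0.20 adjusted over the 4 pairs. The sum of OXSR1 and STK39 was 45.9 ± 2.51 TPM in the Ctrl samples and 60.5 ± 1.89 TPM in the WNK463 samples, with no overlap (exact permutation p = 0.10, adjusted 0.12). Unlike the ratio, this sum depends on the scaling between libraries. The log2 fold change of OXSR1 alone was 0.46 with limma on log2(TPM + 1), 0.42 with total counts and 0.27 with TMM. The TPM values also depend on transcript length. Divided by the TPM of WNK1, that sum gave 0.576, 0.557 and 0.591 in the Ctrl samples and 0.568, 0.645 and 0.703 in the WNK463 samples, which overlapped (exact permutation p = 0.30).

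**Figure D3:**
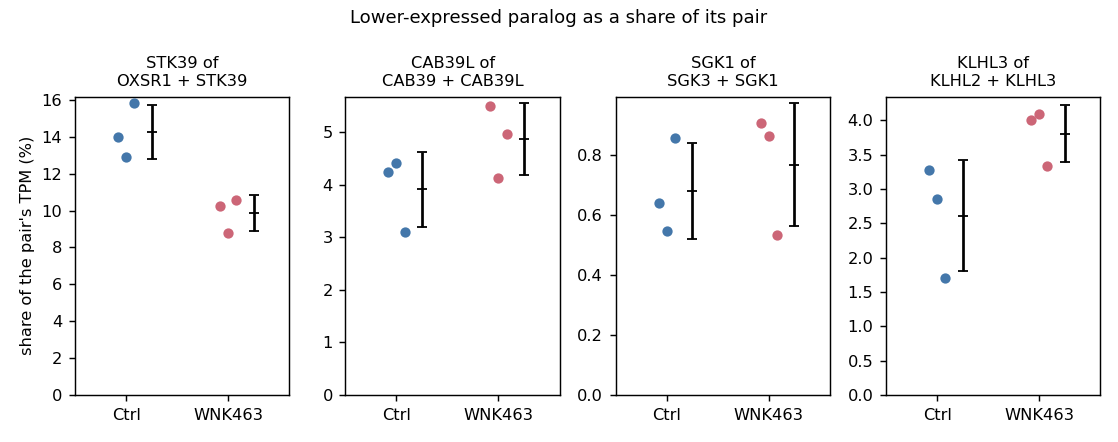
Share of a pair's TPM (%) held by its less abundant gene in each Ctrl (blue) and WNK463 (red) sample, with the mean and SD (n = 3) as black bars and a separate vertical axis from 0 for each pair. STK39 fell from 14.3% to 9.87% of its pair with no overlap, KLHL3 went from 2.61% to 3.81%, and the samples of CAB39L and SGK1 overlap.

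CAB39 and CAB39L encode MO25α and MO25β, scaffolds that bind SPAK, OSR1 and the kinase LKB1 and raise their activity. CAB39 (ENSG00000135932, chromosome 2, 230712845 to 230821075, plus strand) had 165, 173 and 177 CPM in the Ctrl samples and 220.4, 234 and 231 CPM in the WNK463 samples. The groups were far apart next to their spread. The means of 172 ± 5.89 and 229 ± 7.26 CPM (SD, n = 3 each) differed by a log2 fold change of 0.41 (SE 0.05, 95% confidence interval 0.31 to 0.51), a 1.33-fold rise (adjusted p = 5.91e-07, edgeR).

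CAB39L (ENSG00000102547, chromosome 13, 49308650 to 49444126, minus strand) is the minor scaffold of these cells. It had 4.93, 5.90 and 4.45 CPM in the Ctrl samples and 8.52, 8.95 and 8.30 CPM in the WNK463 samples, again without overlap. The means of 5.09 ± 0.737 and 8.59 ± 0.333 CPM (SD, n = 3 each) gave a log2 fold change of 0.76 (SE 0.15, 95% confidence interval 0.44 to 1.08), a 1.69-fold rise (adjusted p = 0.000236, edgeR). CAB39L held 3.92 ± 0.713% of the TPM of the pair in the Ctrl samples and 4.87 ± 0.689% in the WNK463 samples. These shares overlapped, so a difference between the scaffolds in their response was not shown (log2 difference of the ratio CAB39 to CAB39L -0.34, exact permutation p = 0.30, adjusted 0.40 over 4 pairs). It was -0.17 without the third Ctrl sample. The sum of both scaffolds was 86.9 ± 3.61 TPM in the Ctrl samples and 135 ± 3.03 TPM in the WNK463 samples. This sum depends on the scaling between libraries. The log2 fold change of CAB39 alone was 0.61 with limma on log2(TPM + 1), 0.56 with total counts and 0.41 with TMM. The TPM values also depend on transcript length.

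SGK3 and SGK1 are kinases of the AKT-related AGC group. SGK1 is induced by mineralocorticoids and osmotic stress, and SGK3 sits on endosomes through a domain that binds a phosphoinositide. SGK3 (ENSG00000104205, chromosome 8, 66667596 to 66862022, plus strand) had 59.7, 59.3 and 65.3 CPM in the Ctrl samples and 77.8, 78.5 and 73.1 CPM in the WNK463 samples. The lowest WNK463 sample lay above the highest Ctrl sample. The means of 61.4 ± 3.31 and 76.5 ± 2.93 CPM (SD, n = 3 each) gave a log2 fold change of 0.32 (SE 0.06, 95% confidence interval 0.19 to 0.44), a 1.24-fold rise (adjusted p = 0.00014, edgeR).

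SGK3 shares its exons with C8orf44-SGK3 (ENSG00000288602), a readthrough gene that joins the neighbouring C8orf44 to SGK3, and estimated counts had to divide the shared reads between these genes. The readthrough gene had 5, 11 and 38 counts in the Ctrl samples and 84, 81 and 102 in the WNK463 samples. The third Ctrl sample was the highest of its group, and all WNK463 samples lay above it. The means of 1.13 ± 1.06 and 5.43 ± 0.953 CPM gave a log2 fold change of 2.25 (SE 0.39, adjusted p = 5.33e-05, edgeR), for a gene that met the filter on low counts in all of the WNK463 samples and not in all of the Ctrl samples. With the counts of both genes summed, an alternative chosen after seeing the data, the level went from 62.6 ± 4.34 to 81.9 ± 1.98 CPM and the log2 fold change from 0.32 to 0.39 (SE 0.06, adjusted p = 1.67e-05, edgeR).

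**Figure D4:**
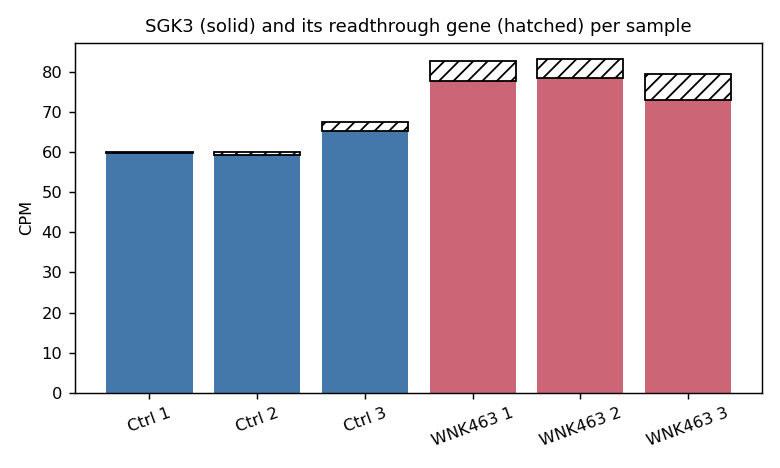
Normalized counts (CPM) of SGK3 (solid) with those of its readthrough gene C8orf44-SGK3 stacked on top (hatched) in each of the 3 Ctrl (blue) and 3 WNK463 (red) samples, on an axis from 0. The solid bars reach 59.3 to 65.3 CPM in the Ctrl samples and 73.1 to 78.5 CPM in the WNK463 samples, and the hatched part is the smallest in the first Ctrl sample.

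The TPM of SGK3 behaved differently from its counts in 1 library. It was 28.1, 29.7 and 29.99 TPM in the Ctrl samples and 53.0, 42.2 and 39.1 TPM in the WNK463 samples, with the first WNK463 sample far above the others. A count divided by its TPM follows the mean length of the transcripts to which reads were assigned. Relative to the Ctrl mean, and centred on the median gene of each sample, this length was 0.995, 0.963 and 1.04 in the Ctrl samples and 0.784, 0.996 and 0.992 in the WNK463 samples. For the 6 other members with at least 100 counts in every sample it stayed between 0.957 and 1.05 in all samples.

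SGK1 (ENSG00000118515, chromosome 6, 134169246 to 134318112, minus strand) was close to absent. It had 3, 3 and 4 counts in the Ctrl samples and 7, 7 and 3 in the WNK463 samples, too few for the filter on low counts. The groups overlapped. The ratio of its summed counts per library size, 17 against 10 counts, was 1.63, and its 95% interval of 0.705 to 3.98 covers counting error only, so no difference was detectable at this depth. SGK1 held 0.681 ± 0.159% of the summed TPM of SGK1 and SGK3 in the Ctrl samples and 0.768 ± 0.204% in the WNK463 samples (SD, n = 3 each; exact permutation p = 0.70 for the log2 ratio).

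In TPM, which allows levels of different genes to be compared per length, the Ctrl samples were led by CUL3 (87.0 ± 8.54), CAB39 (83.6 ± 3.78) and WNK1 (79.9 ± 3.66). Neighbours among these overlapped in their samples, and each stood between the 85.0 and 86.3 percentile of the genes with a TPM above 0 in the Ctrl samples. OXSR1 (39.4 ± 1.72), SGK3 (29.3 ± 0.980), KLHL2 (14.7 ± 1.48), STK39 (6.56 ± 0.980), CAB39L (3.397 ± 0.583), KLHL3 (0.385 ± 0.0908) and SGK1 (0.201 ± 0.0510) followed, each without overlap with the next. With WNK463, CAB39 led at 128 ± 3.81 TPM, clear of CUL3 at 102 ± 1.496 TPM. WNK1 followed at 95.3 ± 8.57 TPM, overlapping with CUL3. KLHL2 at 40.8 ± 0.297 TPM reached the range of SGK3 at 44.8 ± 7.26 TPM, and CAB39L at 6.54 ± 0.785 TPM that of STK39 at 5.98 ± 0.733 TPM.

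The genes whose CPM followed WNK1 most closely over the 6 samples, by the root mean square difference of the centred log2 CPM, were ASXL2 (0.0197), FAM220A (0.0260) and PRDM2 (0.0276), none of them called. For KLHL3, the member with the largest fold change, they were a gene without a symbol, ENSG00000293268 (0.0993), PRAM1 (0.101) and ADGRL1 (0.105), with log2 fold changes of 1.53, 1.62 and 1.49. Such a likeness over 6 samples in 2 groups is a description of these libraries.

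The WNK partners were 6 genes, the pseudokinases NRBP1 and NRBP2, which bind WNK kinases, and TSC22D1 to TSC22D4, whose proteins bind NRBP1 and WNK kinases. All 6 were tested and higher with WNK463, beside 35.5% of all tested genes. Their log2 fold changes ran from 0.30 to 1.76 around a median of 0.63. TSC22D1 had 2.13, 1.44 and 2.56 CPM in the Ctrl samples and 6.34, 7.15 and 7.53 CPM in the WNK463 samples. It rose by a log2 fold change of 1.76 (SE 0.21, adjusted p = 7.44e-07, edgeR). TSC22D2 had 12.1, 12.1 and 13.1 CPM in the Ctrl samples and 27.4, 27.8 and 27.1 CPM in the WNK463 samples. It rose by 1.14 (SE 0.09, adjusted p = 1.95e-09, edgeR), and the groups of neither gene overlapped. TSC22D3, the glucocorticoid-induced leucine zipper, rose by 0.89, NRBP1 by 0.37, NRBP2 by 0.35 and TSC22D4 by 0.30 on the log2 scale.

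Of the SLC12 cotransporters, which SPAK and OSR1 phosphorylate, 6 genes were described and 5 tested, with 3 higher, 1 lower, 1 not called and a median log2 fold change of 0.18, beside 35.5% higher and 35.3% lower among all tested genes. Among the potassium-chloride cotransporters, SLC12A5 (KCC2) had 26, 14 and 14 counts in the Ctrl samples and 45, 46 and 48 in the WNK463 samples, a rise of 1.30 (SE 0.30, adjusted p = 0.000731, edgeR). SLC12A7 (KCC4) rose by 0.17 and SLC12A4 (KCC1) fell by 0.78 on the log2 scale, so these 3 did not move one way. Of the sodium-dependent ones, SLC12A2 (NKCC1) rose by 0.85, SLC12A3 (NCC) was not called at 0.18, and SLC12A1 (NKCC2) had 1 count in the Ctrl samples and 2 in the WNK463 samples.

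The other genes of the SGK pathway were 7, of which 6 were tested, with 3 higher, 3 lower and a median log2 fold change of -0.08, beside the same 35.5% and 35.3% of all tested genes. SGK2, a close relative of SGK1 and SGK3, had 3, 4 and 1 counts in the Ctrl samples and 26, 29 and 11 in the WNK463 samples. The groups did not overlap, and the gene passed the filter on low counts through the WNK463 samples alone. The ratio of summed counts per library size was 7.91 (95% interval 3.79 to 19.1, counting error only). SGK2 is among the 3 higher genes, so the even split of the list and its median of -0.08 depend on this gene of few counts. Apart from SGK2, only PDPK1 and RICTOR were higher, against MTOR, MAPKAP1 and MLST8 lower. PDPK1, the kinase that activates SGK kinases, rose by 0.20 and RICTOR, the defining subunit of mTORC2, by 0.56, while MTOR fell by 0.51, the mTORC2 subunit MAPKAP1 by 0.42 and MLST8 by 0.37 on the log2 scale. NEDD4L, a ubiquitin ligase that SGK1 phosphorylates, was below the filter with 18 and 14 counts.

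The machinery that loads and cycles cullin 3 was a list of 16 genes, all tested, with 6 higher, 8 lower and 2 not called, a median log2 fold change of -0.08 and no change of 2-fold. Among all tested genes 35.5% were higher, 35.3% lower and 15.2% called with at least 2-fold. The changes ran from -0.80 for GPS1 to 0.41 for COPS2, both subunits of the COP9 signalosome that removes NEDD8 from cullins. RBX1, the RING subunit that recruits the ubiquitin-conjugating enzyme, narrowly missed the threshold (0.19, adjusted p = 0.0503, edgeR) and COPS3 was at 0.00. The calls of CAND1, an exchange factor for cullin adaptors (-0.15), and NAE1, a subunit of the NEDD8-activating enzyme (-0.29), were lost with total counts (adjusted p = 0.959 and 0.0574, edgeR), while those of RBX1 and COPS3 were gained. The complement genes of the macrophage list rose in the same samples in which genes of these lists changed, and their part was not tested.

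**Figure D5:**
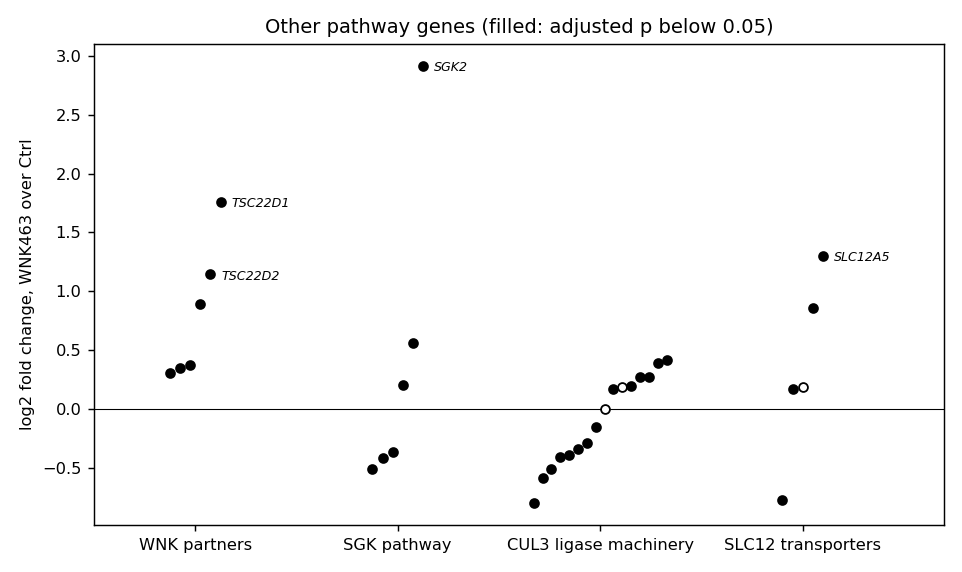
Log2 fold change, WNK463 over Ctrl, of the tested genes of the 4 other pathway lists, sorted within each list, with filled points for an adjusted p below 0.05 (edgeR) and open points for the others. All 6 WNK partners lie above 0, the 16 genes of the cullin 3 machinery spread from -0.80 to 0.41, and the genes named are those called with at least a 2-fold change.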

How the data were processed

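RNA from 6 MV4-11 samples (3 Ctrl, 3 WNK463) was captured with beads for mRNA and sequenced. The submitters' processing notes name fastp, Bowtie2, HISAT2, StringTie, RSEM, DESeq2 and edgeR without versions or roles, and the build GRCh38. The authors deposited estimated counts per gene, rounded to whole numbers and not normalized (62 counts of 0 stand beside a TPM above 0), and TPM values, which the authors scaled by transcript length to the same total in every sample. The deposited table also holds the authors' mean TPM per group, log2 fold change, their p-value and its false discovery rate, and none of these was used. It lists 629 genes without a symbol and 4605 with no counts.

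Counts were tested with edgeR 4.0.16 in R 4.3.3 (scaling by TMM, filterByExpr at its defaults for low counts, the quasi-likelihood F test without a replicate block, Benjamini-Hochberg adjustment over 11973 genes, threshold 0.05). Standard errors are on the log2 scale, and ± is the SD over 3 samples. TMM factors were 0.944 to 0.952 in the Ctrl and 1.05 to 1.06 in the WNK463 samples. The coefficient of variation that edgeR terms biological was 5.21%, for a spread between samples that may be technical. All pairs of replicates differed by more than sampling noise (chi-square per degree of freedom 2.66 to 7.42). The 3-count floor and 95% intervals of count ratios cover counting error only. The procedure was tested on simulated data with 200 changed genes, while 8473 genes were called here. That simulation therefore does not cover changes as widespread as these. Alternatives were DESeq2 1.42.0, total counts, other filters, limma 3.58.1 on log2(TPM + 1) and log2(TPM + 0.1) with a mean TPM of at least 1 or no filter, the replicate block, and each sample left out. Sums and ratios of TPM were compared with exact permutation tests.

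Gene positions are from GENCODE 29 (GRCh38), and promoters are from RefSeq (GRCh38.p14), with an entry for 9 of the 10 members and none for SGK3. Stretches of 75 bases of each member's transcripts were looked up in all other transcripts. The members and the pathway and marker lists were chosen with earlier results of these data known. Named besides the members are the WNK paralogs, pathway genes called with at least 2-fold, and the 3 genes most like WNK1 and like the member with the largest fold change. The other pathway and marker genes given with values, and the readthrough gene, were chosen after their values were seen. Of the pathway lists, 1 gene is not reported here and is left out of its list's count and median.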

Additional observations from a re-analysis of the deposited data

How the results depend on the processing

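OXSR1, CAB39, CAB39L, SGK3, KLHL2 and KLHL3 were higher and called under every alternative run for them (14 each, 15 for SGK3 and 12 for KLHL3, whose mean TPM was under the filter of the other 2). Members called higher were 8 in place of 6 with total counts and with limma without a filter, with WNK1 and CUL3 added. They were 7 with the 2 filtered limma fits, which left out KLHL3, and 7 without the second WNK463 sample. Members called lower were 0 in place of 1 with DESeq2, with total counts and with at least 10 counts in every sample. They were also 0 with all 3 limma fits on TPM, and 0 to 1 with single samples left out. The number of members called with at least 2-fold was 1 in place of 2 with the 3 limma fits, where KLHL3 was at 0.92 without a filter. With limma, 2643 genes were lower with log2(TPM + 1), 2634 with log2(TPM + 0.1) and 2635 without a filter, in place of 4222. Those called with at least 2-fold were 1109 with log2(TPM + 1) and 1151 without a filter, in place of 1817. Of the called genes 65.0%, 64.9% and 67.0% were higher in these fits. Higher with limma were 4902 and 4880 of 11315 tested genes with the filter and 5343 of 15775 without it. Lower were 4045 of 11972 tested genes with DESeq2, 3123 of 11973 with total counts and 3981 of 11150 with at least 10 counts. With total counts 5525 of 11973 were higher. CUL3 turned to -0.02 without the first Ctrl sample (-0.021 to 0.11 with single samples left out). With the replicate block 8398 genes were called in place of 8473 and no call of a member changed; samples with the same number did not deviate together (correlations 0.0127, 0.0155 and -0.0557). The log2 TPM ratio of SGK3 to SGK1 was 0.04 in place of -0.16 with a pseudocount of 0.1. Depth limits SGK1, SGK2, WNK2, WNK3, WNK4 and KLHL3, for which few counts set the width of the intervals. The cause of these differences was not tested.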
